A study of Bos taurus with 6 samples.

Results

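The nuclear-encoded subunits of the mitochondrial respiratory chain were represented by 79 of the 9155 genes named on a bovine expression array, through 99 probe sets. Members were taken by gene symbol, as the subunits of complexes I to V, with the paralogue NDUFA4L2 set apart. Where a gene had several probe sets, the brightest by mean log2 signal was used. Complex I had 36 measured genes, complex II 4, complex III 9, complex IV 13 and complex V 17. The complex V count includes ATP5IF1, which encodes an inhibitor of the ATP synthase rather than a subunit. Subunits encoded by mitochondrial DNA, and the isoforms COX4I2, COX6B1 and COX7B, were not analysed here.

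Bone marrow mesenchymal stem cells of cattle were cast in agarose and kept in a defined medium, and 1 array was made for each of 6 conditions. Constructs with TGF-beta3, a growth factor used to induce cartilage formation, were sampled at day 21 and at day 42. A further construct with TGF-beta3 received cyclic compression (dynamic loading) from day 21 and was sampled at day 42. Constructs that never received TGF-beta3 were sampled at days 3, 21 and 42 as undifferentiated controls, so that all 6 conditions shared the agarose and the defined medium. With 1 array in each condition, a comparison of 2 arrays has no replicate error and is given without a p-value. The labels do not state whether the constructs came from separate donors or cultures. The p-values below set the mean TGF-beta3 difference against how far that difference varied between the days, pooled over probe sets. They rest only on these arrays and measure no spread between replicates, and the spread they use may be partly technical.

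The respiratory chain passes electrons from NADH, through complex I, and from succinate, through complex II, to complex III and then by way of cytochrome c to complex IV, which reduces oxygen to water. Complexes I, III and IV pump protons across the inner mitochondrial membrane, and complex V, the ATP synthase, uses the return of those protons to make ATP. Cartilage has no blood supply, and its chondrocytes are known to make much of their ATP by glycolysis, whereas adipocyte formation from marrow stem cells is known to be accompanied by an increase in mitochondria.

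The unit throughout is the deposited linear signal intensity, and values under 15 were treated as not above background. The share of probe sets above that floor ran from 55.0% to 65.5% over the arrays, and a trimmed mean, without the top and bottom 2% of probe sets, was 150 on all 6. The 18 hybridisation spikes, foreign transcripts added to each hybridisation, had median signals between 2618 and 7304, the highest values being 5823 on the loaded array and 7304 on the day 42 array with TGF-beta3. The ratio of 3′ to 5′ probe sets was between 1.51 and 2.27 for GAPDH, between 4.86 and 7.52 for cyclophilin and between 5.08 and 9.10 for eIF4E, with the highest eIF4E ratio on the day 42 array without TGF-beta3. Of 10 stem cell markers, 9 were above the floor on each array without TGF-beta3 and 7 on each array with it, and LEPR was under the floor on all 6 arrays.

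Subunit transcripts were abundant on every array. Of the 79 genes, 77 were above the floor on all 6 arrays, the exceptions being COX6A2 and COX6B2, tissue-restricted isoforms of complex IV subunits. The median signal of the 79 genes was 1263 at day 3, 1604 with TGF-beta3 and 1701 without it at day 21, and 1675 with TGF-beta3 and loading, 1915 with TGF-beta3 alone and 2271 without TGF-beta3 at day 42. The value was therefore lowest at day 3 and highest at day 42 without TGF-beta3. Each gene was read by its own probe set, so signals of different genes are not compared.

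**Figure D1:**
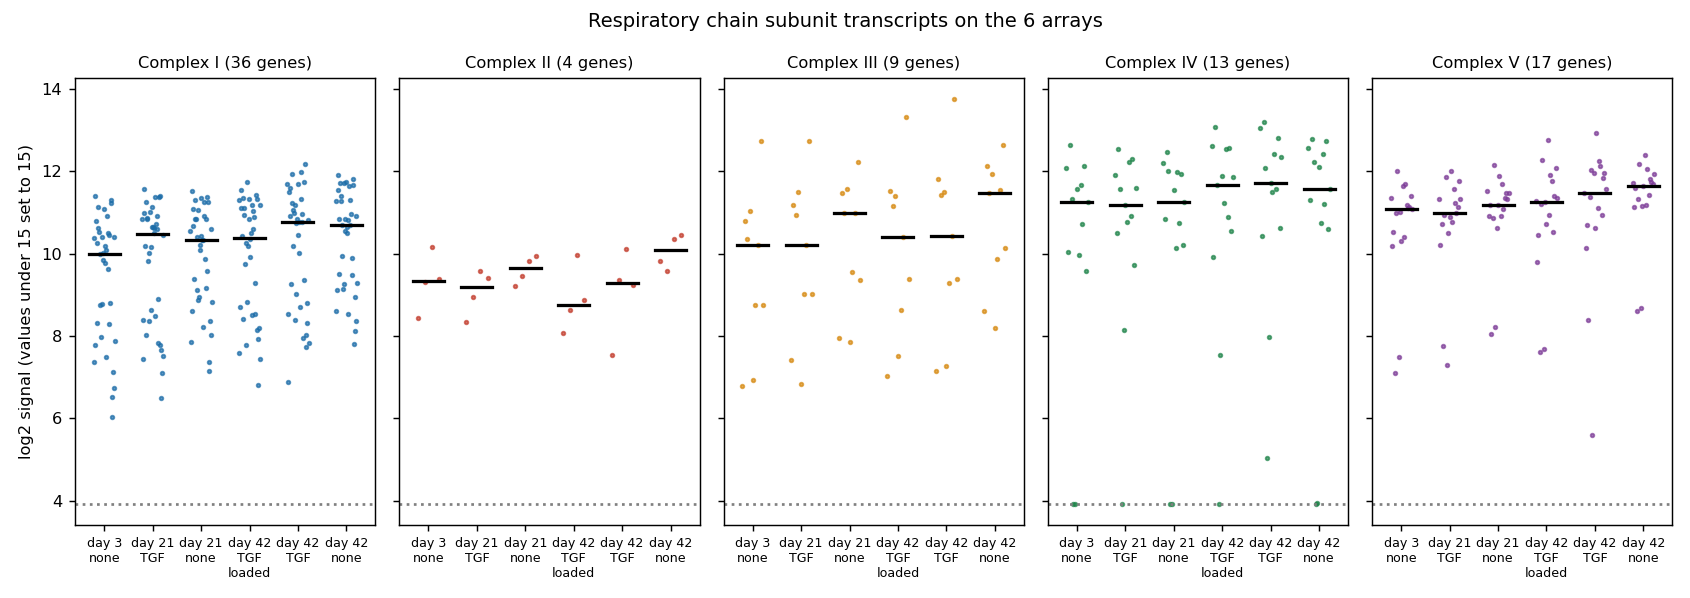
Each point is the log2 signal of 1 subunit gene on 1 array, in a panel for each complex, and the black bar is the median of the panel's genes on that array. The dotted line is the floor, a signal of 15. COX6A2 and COX6B2 are the points of complex IV near the floor, and 77 of the 79 genes lie above it on all 6 arrays.

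Without TGF-beta3, subunit transcripts were higher at each later time. At day 21 the median log2 difference from day 3 was 0.35 over the 77 genes with a value above the floor in this pair, and 67 of them, 87.0%, were higher at day 21. Over all genes compared, 51.9% were higher, with a median of 0.03. Between these arrays the spikes differed by a median of -0.45 and the 63 cytosolic ribosomal protein genes compared by -0.38, so both medians had the opposite sign. Complex III had the largest median of the complexes at 0.68, followed by complex I at 0.37, complex II at 0.36, complex V at 0.23 and complex IV at 0.11. At least 2-fold higher were 5 genes and at least 2-fold lower were 0, against 7.04% and 4.72% of all genes compared.

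The 5 genes were NDUFV1, NDUFS8, NDUFS6 and NDUFA3 of complex I and CYC1 of complex III. NDUFV1, the subunit that binds NADH and the flavin cofactor, had a signal of 258 at day 21 and 106 at day 3, a 2.43-fold difference. NDUFS8, an iron-sulphur subunit, had 331 at day 21 and 140.3 at day 3. CYC1, which carries the haem of cytochrome c1, had 245 at day 21 and 111 at day 3, a log2 difference of 1.15. The lowest values were those of UQCRH, the acidic hinge protein of complex III, with 4800.4 at day 21 and 6832 at day 3. ATP5MC2, which encodes the rotor subunit c of complex V, had 1567 at day 21 and 2054 at day 3, and SDHC, a membrane anchor of complex II, had 909 and 1148 on the same arrays.

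From day 21 to day 42 without TGF-beta3, all 78 genes compared had a higher signal at day 42, with log2 differences between 0.01 and 0.84 and a median of 0.42. Over all genes compared, 54.2% were higher at day 42, and over the 821 genes with a mean signal of at least 1000 it was 78.6%. The spikes differed by a median of 0.10 and the cytosolic ribosomal protein genes by 0.26. The complexes lay close together, with medians of 0.41 for complexes I, IV and V, 0.47 for complex III and 0.51 for complex II. No member reached a 2-fold difference in either direction, against 3.82% of all genes compared that were higher and 5.52% that were lower. The largest differences were those of NDUFA7 with 984 at day 42 and 550.4 at day 21, NDUFC1 with 1657 and 939, and COX7C with 6779 and 3902. The smallest was that of the inhibitor ATP5IF1, with 4614 at day 42 and 4567 at day 21.

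Over the whole span from day 3 to day 42 without TGF-beta3, a comparison added after the data were seen, 30 of the 78 genes compared were at least 2-fold higher and 0 were at least 2-fold lower, against 11.3% and 8.81% of all genes compared. It shares its arrays with the comparisons of the separate intervals. The median was 0.77, beside 0.03 for all genes and -0.34 for the spikes, and 77 of the 78 genes were higher at day 42, against 51.9% of all genes. Complex III led again, with a median of 1.27 and 7 of its 9 genes at least 2-fold higher. In complex I, 15 of 36 genes were at least 2-fold higher, in complex II 2 of 4, in complex IV 2 of 12 and in complex V 4 of 17. CYC1 was 3.54-fold higher with 392 at day 42, NDUFS8 3.49-fold higher with 489 and NDUFV1 3.11-fold higher with 330.0. UQCRH was the exception, with 6411 at day 42 and 6832 at day 3.

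The gain over time without TGF-beta3 was larger for dim probe sets. For the 23 genes compared whose mean signal was under 1000, the median log2 difference between day 21 and day 3 was 0.82, and for the 54 brighter genes it was 0.24. Across the 79 genes, which share the same pair of arrays, Spearman's rho between mean log2 signal and this difference was -0.60. That value includes COX6A2 and COX6B2, which were under the floor on both arrays and so had a difference of 0. Between day 42 and day 21 without TGF-beta3 the medians of the dim and bright genes were 0.45 and 0.42, and rho was -0.03. The part of probe brightness in these values was not tested.

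**Figure D2:**
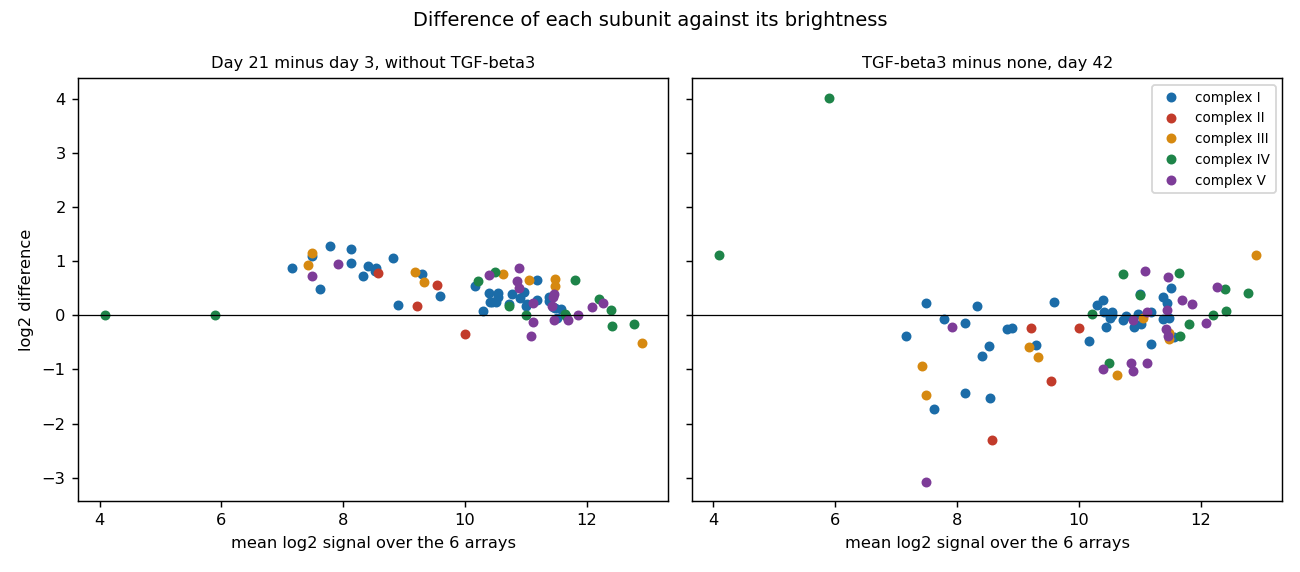
Each point is 1 of the 79 subunit genes, with its mean log2 signal over the 6 arrays on the horizontal axis and its log2 difference on the vertical axis, for day 21 minus day 3 without TGF-beta3 on the left and TGF-beta3 minus none at day 42 on the right. Dim genes lie above bright ones on the left (rho -0.60) and mostly below them on the right (rho 0.40), where COX6B2 at 4.03 is the highest point. Values under 15 were set to 15, which places COX6A2 and COX6B2 at 0 on the left.

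With TGF-beta3 a complex IV isoform rose and subunits of complexes I, II and V fell, 5 genes in all. The effect was tested with limma over days 21 and 42, on the 4 unloaded arrays with a term for day. Of the 78 members tested, 1 rose and 4 fell at an adjusted p under 0.05, which is 1.28% and 5.13% of them. Of the 6849 genes tested, 7.33% rose and 7.8% fell in the same fit. After quantile normalization, or with the loaded array for day 42, the share of members that fell was above that of all genes. With a median over probe sets the shares were close, 8.97% of members and 8.65% of all genes. In the other fits on 4 arrays the members' share was below that of all genes. COX6B2 rose, and SDHA, NDUFS1, NDUFV3 and ATP5MC1 fell. A further 8 members had an unadjusted p under 0.05 and did not pass.

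COX6B2 encodes an isoform of cytochrome c oxidase subunit 6B that in humans is known from testis. Its signal was 8.03 at day 3, 281 with TGF-beta3 and 11.6 without it at day 21, and 186 with TGF-beta3 and loading, 252 with TGF-beta3 alone and 15.5 without TGF-beta3 at day 42. The 3 arrays with TGF-beta3 were all far above the floor and the 3 without it were under it or just above it. The gene was at least 18.7-fold higher with TGF-beta3 at day 21 and 16.3-fold higher at day 42, where the lower value was just above the floor. The mean log2 difference was 4.13 ± 0.71 (SE, limma adjusted p = 8.1e-06), and COX6B2 was called in every alternative fit on 4 arrays. It entered the test only through the arrays with TGF-beta3, because the arrays without it were not both above the floor. The test could therefore call COX6B2 only as risen, in the alternative fits too.

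SDHA encodes the flavoprotein of succinate dehydrogenase, the enzyme of the tricarboxylic acid cycle that is also complex II. It had a signal of 348 at day 3, 323 with TGF-beta3 and 597 without it at day 21, and 271 with TGF-beta3 and loading, 184 with TGF-beta3 alone and 908 without TGF-beta3 at day 42. On each day the TGF-beta3 value was the lower, 1.85-fold at day 21 and 4.93-fold at day 42. It fell by 1.59 on the log2 scale (SE 0.38, limma adjusted p = 0.0015). SDHA did not pass after centring on the spikes, or without the day term or the variance trend.

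NDUFS1, the largest iron-sulphur subunit of complex I, had 313 at day 3, 227 with TGF-beta3 and 573 without it at day 21, and 372 with TGF-beta3 and loading, 248 with TGF-beta3 alone and 712 without TGF-beta3 at day 42. It fell by 1.43 on the log2 scale (SE 0.38, limma adjusted p = 0.0047). It did not pass with a median over its probe sets, where the log2 difference was -1.27 (SE 0.62, limma adjusted p = 0.15). NDUFV3, an accessory subunit of the module of complex I that oxidises NADH, had 233 at day 3, 183 with TGF-beta3 and 454 without it at day 21, and 173 with TGF-beta3 and loading, 229 with TGF-beta3 alone and 621 without TGF-beta3 at day 42. It fell by 1.38 on the log2 scale (SE 0.39, limma adjusted p = 0.0092). Neither NDUFS1 nor NDUFV3 passed after median centring or centring on the spikes, or without the day term or the variance trend. For both genes the 3 arrays with TGF-beta3 lay below the arrays without it at days 21 and 42.

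Subunit c of the ATP synthase rotor is encoded by ATP5MC1, ATP5MC2 and ATP5MC3, whose mature proteins are the same in mammals. ATP5MC1 had a signal of 180.3 at day 3, 158 with TGF-beta3 and 298 without it at day 21, and 207 with TGF-beta3 and loading, 48.5 with TGF-beta3 alone and 409 without TGF-beta3 at day 42. Its mean log2 difference was -1.997 ± 0.499 (SE, limma adjusted p = 0.0027), and it fell. ATP5MC3 was also lower with TGF-beta3, with 1885 against 2326 without it at day 21, and 1569.9 against 3197 at day 42, and it did not pass (log2 difference -0.66, limma adjusted p = 0.22). ATP5MC2 had 1439.7 with TGF-beta3 and 1567 without it at day 21, and 3989 with TGF-beta3 and 2270.5 without it at day 42 (limma adjusted p = 0.59). The 3 genes were thus lower with TGF-beta3 at day 21, whereas at day 42 ATP5MC1 and ATP5MC3 were lower and ATP5MC2 was 1.76-fold higher, less than the 2.62-fold shift of the spikes between those arrays.

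**Figure D3:**
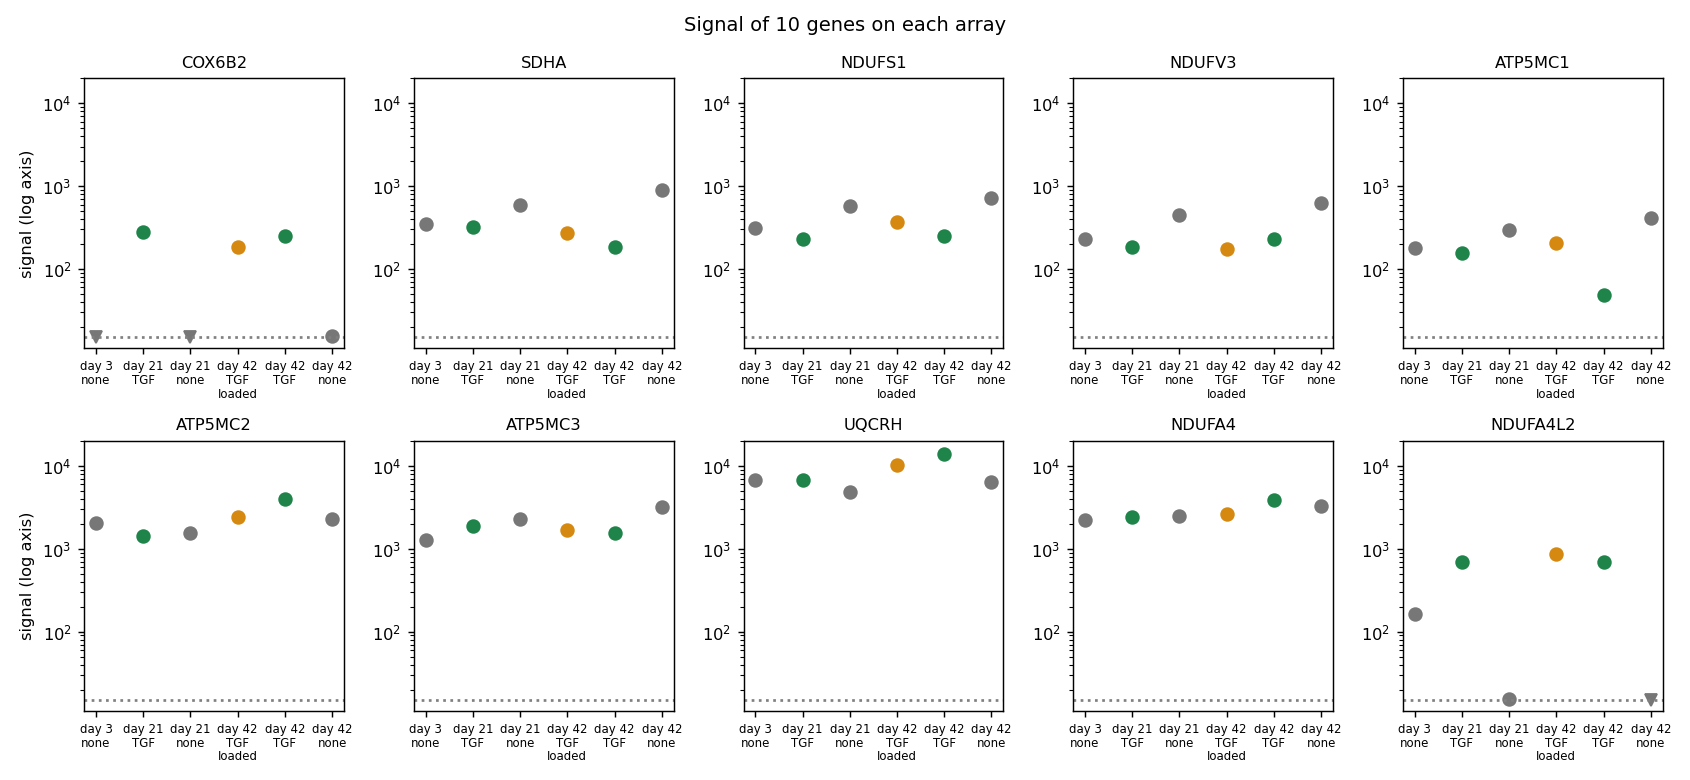
Signal on each array of COX6B2, the 4 subunit genes that fell, the other 2 genes for subunit c, UQCRH, NDUFA4 and its paralogue NDUFA4L2, on a log axis. Grey marks arrays without TGF-beta3, green with TGF-beta3 and orange with TGF-beta3 and loading, and a triangle stands for a value under the floor of 15 (dotted). COX6B2 and NDUFA4L2 are at or near the floor at days 21 and 42 without TGF-beta3 and between 186 and 860.5 with it.

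The number of subunits that fell depended on the processing. It was 18 after quantile normalization, 7 with a floor of 100 or with a median over probe sets of a gene, 11 with the loaded array used for day 42, 2 after median centring, 1 after centring on the spikes, and 0 without the day term or without the variance trend. The share of members was 23.1% after quantile normalization, against 9.37% of all genes, 14.1% with the loaded array, against 9.31%, and 8.97% with a median over probe sets, against 8.65%. With a floor of 100 it was 8.97%, against 11.2% of all genes. With 15 added to each value in place of a floor it was 6.41%, against 8.73%. After median centring it was 2.56%, against 6.91%, and after centring on the spikes 1.28%, against 8.09%. In fits on 3 arrays that had no day term it was 9 when the TGF-beta3 array of day 21 was dropped, 6 when that of day 42 was dropped and 0 when either array lacking TGF-beta3 was dropped, and 6 subunits rose when the TGF-beta3 array of day 21 was dropped. ATP5MC1 rested most on a single array, since its log2 difference was -1.15 with the unloaded TGF-beta3 array of day 42 dropped and -0.95, not called (limma adjusted p = 0.10), with the loaded array in its place.

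On each day alone the subunits' medians lay below those of all genes and of the spikes. At day 21 the median log2 difference between TGF-beta3 and none was -0.20 over the 78 members compared, 0.09 over all genes, 0.23 over genes with a mean signal of at least 1000 and 0.27 over the spikes. At least 2-fold higher were 2 members and at least 2-fold lower 4, against 14.3% and 14% of all genes compared. By any amount, 51 of the 78 were lower, 65.4% against 45.7% of all genes. At day 42 the median was -0.09 over 79 members, 0.22 over all genes, 0.29 over the bright genes and 1.39 over the spikes. At least 2-fold higher were 3 members and at least 2-fold lower 9, against 25.5% and 15.7% of all genes compared. By any amount, 48 of the 79 were lower, 60.8% against 41% of all genes. At day 42 the spikes ranged from 1.27 to 1.48, and every member above the floor on both arrays except COX6B2 had a smaller difference than any spike.

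**Figure D4:**
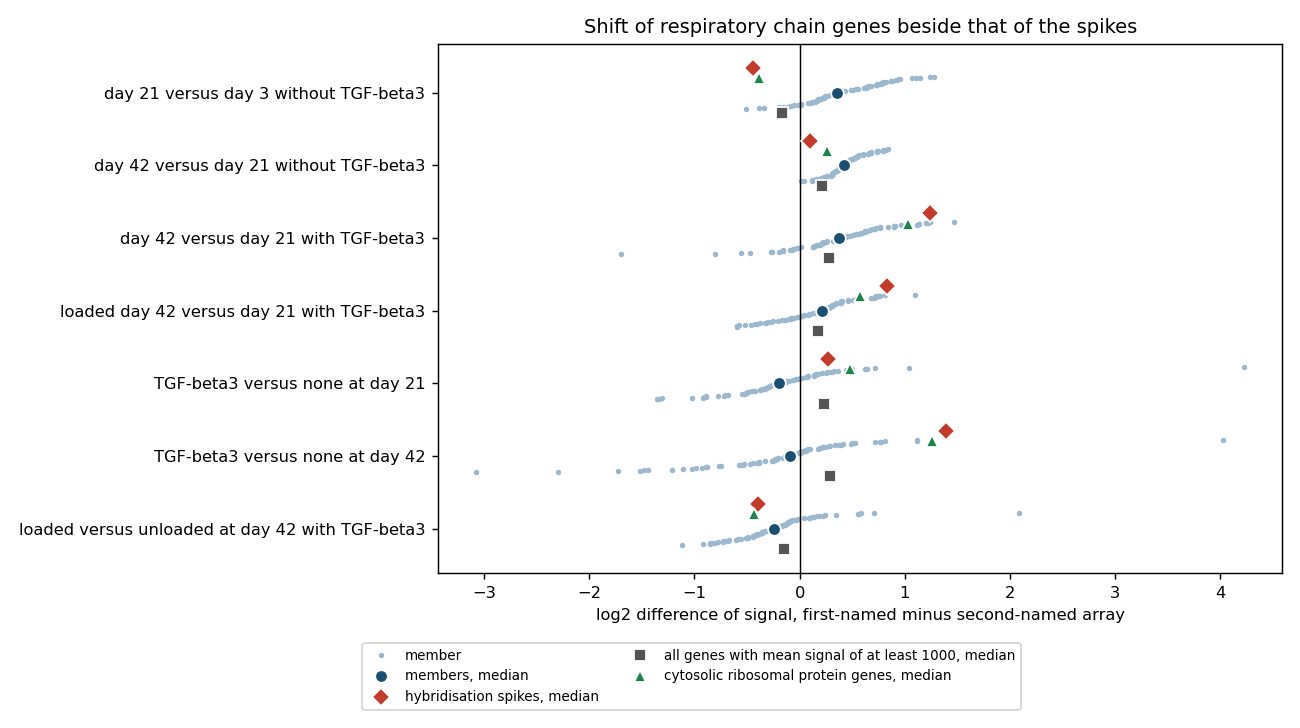
Each small point is the log2 difference of 1 subunit gene between the arrays named on the left, and the large symbols are medians of the subunits, the spikes, the bright genes and the cytosolic ribosomal protein genes. Without TGF-beta3 the subunits' median (0.35 and 0.42) lies above that of the spikes (-0.45 and 0.10). In the comparison of TGF-beta3 with none it lies below it, at -0.20 beside 0.27 at day 21 and at -0.09 beside 1.39 at day 42.

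The complexes differed in their medians. Complex II had median log2 differences between TGF-beta3 and none of -0.53 at day 21 and -0.73 at day 42, with all 4 genes lower on both days, and complex III had -0.32 and -0.58, with 8 of 9 genes lower on each day. Complex I stood at -0.07 and -0.06 and complex V at -0.18 and -0.14. Complex IV was the only complex with a median above 0, at 0.13 on day 21 and 0.37 on day 42, and relative to the spikes its median was below 0 on both days (-0.14 and -1.02). These medians are over 4 to 36 genes of the same arrays and were not tested against each other.

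The dimmer members had the lower medians with TGF-beta3. Members with a mean signal under 1000 had median log2 differences of -0.53 at day 21 and -0.54 at day 42, and the brighter members -0.06 and -0.01. The order was the same over all genes. Those with a mean signal of 100 to 1000 had medians of 0.05 and -0.05, and those of at least 1000 had 0.23 and 0.29. The part of brightness in these differences was not tested.

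In complex II, SDHD, a membrane anchor, had 674 with TGF-beta3 and 983 without it at day 21, and 599.7 with TGF-beta3 and 1394 without it at day 42 (limma adjusted p = 0.076). SDHB, the iron-sulphur subunit, had 496 against 705 at day 21 and 653 against 767 at day 42. SDHC had 759 against 909 at day 21 and 1104 against 1304 at day 42. All 4 subunits of succinate dehydrogenase therefore had lower signals with TGF-beta3 on both days, and SDHA alone passed the test.

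In complex III, UQCRFS1, the Rieske iron-sulphur protein, had 1184 with TGF-beta3 and 2024 without it at day 21, and 1372 with TGF-beta3 and 2962 without it at day 42 (limma adjusted p = 0.057). CYC1 had 169.8 against 245 at day 21 and 141 against 392 at day 42 (limma adjusted p = 0.13). UQCRC1, a core protein, had 114 against 231 at day 21 and 154 against 293 at day 42 (limma adjusted p = 0.17). The 3 genes were lower on both days without passing the test. UQCRH was the 1 gene of complex III with a higher signal, at 6776 with TGF-beta3 and 4800.4 without it at day 21 and 13879 with TGF-beta3 and 6411 without it at day 42, a log2 difference of 1.11 that turned to -0.13 after quantile normalization and to -0.21 after centring on the spikes.

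In complex I, NDUFA10, an accessory subunit, had 173 with TGF-beta3 and 233 without it at day 21, and 118 with TGF-beta3 and 391 without it at day 42 (limma adjusted p = 0.11). NDUFA3, another accessory subunit, had the lowest log2 difference of the set at day 21, -1.36, with 261 against 669, and 609.8 against 724 at day 42. NDUFV1 had 138 against 258 at day 21 and 317 against 330.0 at day 42. The low values of NDUFA3 and NDUFV1 with TGF-beta3 were thus those of day 21, whereas that of NDUFA10 was that of day 42. NDUFC1 was the only complex I gene at least 2-fold higher on either day, with 1936 against 939 at day 21 and 1731 against 1657 at day 42.

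**Figure D5:**
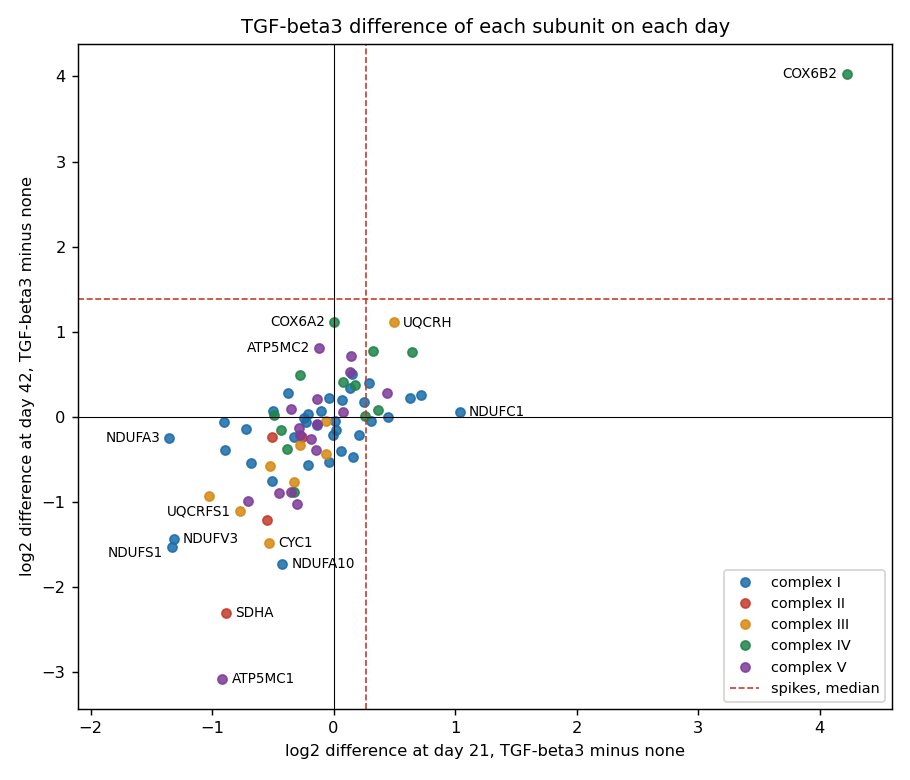
Each point is 1 subunit gene, with its log2 difference between TGF-beta3 and none at day 21 on the horizontal axis and at day 42 on the vertical axis, coloured by complex. Dashed lines are the medians of the spikes, 0.27 and 1.39. COX6B2 stands apart at the upper right, SDHA and ATP5MC1 at the bottom, and COX6A2, under the floor on both arrays of day 21, is drawn at 0 on the horizontal axis.

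In complex V, the catalytic beta subunit ATP5F1B had 1187 with TGF-beta3 and 1939 without it at day 21, and 1132 with TGF-beta3 and 2239.9 without it at day 42 (limma adjusted p = 0.090). Its other probe set was lower on both days too, with log2 differences of -1.01 and -1.57. ATP5F1C, the central shaft of the rotor, had 1682 against 2299.8 at day 21 and 1653 against 3062 at day 42 (limma adjusted p = 0.21). ATP5F1A, the alpha subunit, had 2569 against 2920.2 at day 21 and 2824 against 3377 at day 42. Its other, dim probe set was under the floor on both arrays of day 21. At day 42 that probe set went the other way, with 65.9 with TGF-beta3 and a value under the floor without it. By the probe sets used, the 3 subunits of the catalytic head and shaft were lower on both days, and none passed the test.

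Complex IV holds isoforms with different tissue distributions. COX4I1, the ubiquitous form of subunit 4, had 3853 with TGF-beta3 and 4672 without it at day 21, and 8477 with TGF-beta3 and 6041 without it at day 42, so that the days differed in sign. COX5A had 1456 against 1822 at day 21 and 1368 against 2523 at day 42 (limma adjusted p = 0.26), and COX5B had 5996 against 5669.9 at day 21 and 9370.4 against 7039.9 at day 42. The muscle isoform COX7A1 had 1753 against 1124 at day 21 and 2899 against 1711 at day 42 (limma adjusted p = 0.18), beside 4797 against 4014 and 5489 against 5461 for COX7A2, the form found in most tissues, and 1920.5 against 1701 and 3056 against 2359 for COX7A2L, a factor of supercomplex assembly. COX8B, likewise a muscle form, had 3063 against 2446 at day 21 and 5197 against 3032 at day 42, and COX8A had 844 against 1189 at day 21 and 1570.1 against 1543 at day 42.

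The muscle isoform COX6A2 was under the floor on 5 arrays and had 32.5 on the day 42 array with TGF-beta3, at least 2.17-fold higher than without it. It was above the floor on too few arrays to be tested. Its counterpart COX6A1 had 3032 with TGF-beta3 and 4082 without it at day 21, and 4319 with TGF-beta3 and 4798 without it at day 42. COX7A1 and COX8B were well above the floor on all 6 arrays, including day 3, where they had 999.5 and 2419. Of 9 skeletal and cardiac muscle markers measured, 3 were above the floor on each array without TGF-beta3, 4 and 5 on the arrays with TGF-beta3 at days 21 and 42 and 7 on the loaded array, MYOG and TNNT3 being under the floor on all 6. The part of such cells in these levels was not tested.

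Loading was compared with free swelling at day 42, with TGF-beta3 on both arrays. Most subunits had a slightly lower signal in the loaded construct, with a median log2 difference of -0.25 over 79 members. Of these, 64 were lower, 81.0% against 52.4% of all genes compared. Among all genes with a mean signal of at least 1000, 64.2% were lower. The spikes were lower as well (median -0.39), and after centring on the spikes the members' median was 0.08. At least 2-fold higher was 1 member and at least 2-fold lower 1, against 8.42% and 7.41% of all genes compared. The comparison of TGF-beta3 with none at day 42 shares the unloaded array with this one.

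The member that was at least 2-fold higher with loading was ATP5MC1, with a signal of 207 on the loaded array and 48.5 on the unloaded one, a 4.26-fold difference. The loaded value lay between those of the day 21 arrays, 158 with TGF-beta3 and 298 without it, and the unloaded day 42 value was the lowest of the 6 arrays. NDUFA10 had 193 with loading and 118 without, and NDUFS1 had 372 and 248. The lowest were NDUFS7 with 112 on the loaded array and 212 on the unloaded one, NDUFS8 with 245 and 442, and NDUFS5 with 2550.0 and 4590.1. COX6A2, the member at least 2-fold lower, was under the floor on the loaded array and had 32.5 on the unloaded one.

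Against day 42 without TGF-beta3, the loaded array, which carried TGF-beta3 as well, showed the same direction for the 5 called genes. The log2 difference of the loaded array was 3.59 for COX6B2, -1.75 for SDHA, -1.84 for NDUFV3, -0.94 for NDUFS1 and -0.98 for ATP5MC1. The corresponding values of the unloaded array, which share the same control array, were 4.03, -2.30, -1.44, -1.52 and -3.07.

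With TGF-beta3 the signal of most subunits was higher at day 42 than at day 21, by a median log2 difference of 0.37 over 79 members. Of these, 63 were higher, 79.7% against 58.5% of all genes and 68.1% of genes with a mean signal of at least 1000. The spikes differed by 1.24, and after centring on them the members' median was -0.81. At least 2-fold higher were 8 members and at least 2-fold lower was 1, against 19.7% and 11% of all genes compared. The highest were ATP5MC2 with 3989 at day 42 and 1439.7 at day 21, NDUFS7 with 212 and 89.5, and NDUFA3 with 609.8 and 261. The lowest were ATP5MC1 with 48.5 at day 42 and 158 at day 21, SDHA with 184 and 323, and NDUFA10 with 118 and 173.

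For the loaded array the median log2 difference from day 21 with TGF-beta3 was 0.22 over 78 members with 53 higher, 67.9% against 58.5% of all genes, beside 0.83 for the spikes, and it was -0.16 after median centring and -0.64 after centring on the spikes. At least 2-fold higher was 1 member and at least 2-fold lower were 0, against 15.5% and 7.36% of all genes compared. That member was NDUFV1, with 294 on the loaded array and 138 at day 21. COX8A with 1486 and 844 and ATP5MC2 with 2448 and 1439.7 came next, and COX5A with 961 and 1456, COX6B2 with 186 and 281 and NDUFA9 with 219 and 331 were the lowest.

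Several genes had probe sets that disagreed. Of 14 further probe sets of members above the floor at day 21, 8 had the same sign of the TGF-beta3 difference as the probe set used and 6 differed from it by at least 1 on the log2 scale, and at day 42 it was 9 and 8 of 15. The further probe sets of NDUFA5 gave -2.74 and 0.39 at day 42 where the probe set used gave -0.16, and that of ATP5MG gave -1.72 against 0.21. That of ATP5F1D gave 1.91 against -0.21 and that of UQCRB -1.82 against -0.44. Which probe set follows the mature transcript was not tested.

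Genes around the respiratory chain were read from the same limma test over days 21 and 42, in which the median mean log2 difference over all genes was 0.13. Of all genes tested in it, 7.33% rose and 7.8% fell. Of 25 assembly factors tested, 0 rose and 0 fell, with a median of -0.08 and 2 at an unadjusted p under 0.05. The extremes were COX20 at -1.25 and NDUFAF6 at 0.95, neither of which passed. Mitochondrial ribosomes make the subunits encoded by mitochondrial DNA. Of 67 genes taken by a mitochondrial ribosomal protein symbol alone, whatever their role, 3 rose and 1 fell, with a median of 0.05. These calls are 4.48% and 1.49% of the list, both under the shares of all genes. MRPL45 rose by 1.75, MRPL23 by 1.54 and MRPL36 by 1.36, and MRPS36 fell by 1.42. Of 63 cytosolic ribosomal protein genes, 6 rose (9.52%, near the share of all genes) and 0 fell, with a median of 0.86. RPL7A rose by 1.51, RPL28 by 1.36, RPS29 by 1.25 and RPSA by 1.21, and the 2 others were RPL29 and RPL13. At day 42 alone their median difference was 1.26, beside 1.39 for the spikes.

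Among the enzymes that feed electrons into the chain, all those called in this fit fell. Of 16 enzymes of the tricarboxylic acid cycle, pyruvate dehydrogenase and pyruvate carboxylase (PC), 6 fell and 0 rose. The share that fell was 37.5%, against 7.8% of all genes, and the median was -0.79. Of the 16, 12 had a mean difference below 0, and the highest, PC at 1.31 and IDH2 at 0.88, were not called. The number that fell was 2 after median centring, 2 after centring on the spikes, 2 without the day term and 0 without the variance trend. With the loaded array used for day 42, 6 fell and 1 rose. Citrate synthase (CS) had 466 with TGF-beta3 and 1261 without it at day 21, and 262 with TGF-beta3 and loading, 290 with TGF-beta3 alone and 1619 without TGF-beta3 at day 42, and fell by 1.96 (limma adjusted p = 1.8e-05). PDHX fell by 1.67, PDHA1 by 1.34 and PDHB by 1.13, all of the pyruvate dehydrogenase complex, and SUCLA2 and SUCLG1 of succinyl-CoA ligase were the other two. Of 13 genes of fatty acid beta-oxidation, 7 fell and 0 rose, 53.8%, with a median of -1.50, and 4 fell without the day term or without the variance trend. ACADM, the medium-chain acyl-CoA dehydrogenase, had 110 with TGF-beta3 and 834 without it at day 21 and 62.7 with TGF-beta3 and 933 without it at day 42, and fell by 3.41 (limma adjusted p = 1.5e-09). ACADL fell by 2.87, ACAA2 by 2.16 and HADHB by 2.05.

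Of 19 genes of carriers, ubiquinone synthesis and uncoupling that were tested, 2 fell and 0 rose. The share that fell was 10.5%, against 7.8% of all genes. The cytochrome c gene CYCS was not among those tested, and ATP5IF1, counted above with complex V, was. UCP2, an anion carrier of the uncoupling protein family, had signals under the floor with TGF-beta3 on the unloaded arrays, against 236 at day 21 and 225 at day 42 without it, and 36.0 on the loaded array. UCP2 entered the test only through the arrays without TGF-beta3, so it could be called only as fallen. ETFA, which passes electrons from fatty acid oxidation to ubiquinone, fell by 1.67. Of 9 regulators of mitochondrial biogenesis, 1 fell (11.1%) and 0 rose. This was PPARGC1A, the coactivator known for driving mitochondrial biogenesis. It had 20.2 with TGF-beta3 and 451 without it at day 21, and 127 with TGF-beta3 and loading, 92.1 with TGF-beta3 alone and 299 without TGF-beta3 at day 42. PPARGC1A fell by 3.09 (limma adjusted p = 4.9e-05), and it did not pass without the day term (limma adjusted p = 0.085). Of 7 mitochondrial antioxidant genes, GPX4 and GLRX2 fell (28.6%), by 0.97 and 1.43, and 0 rose.

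Genes that respond to low oxygen moved the other way. Of 8 tested, 5 rose and 0 fell, 62.5% against 7.33% of all genes, with a median of 1.78. The number that rose was 1 after centring on the spikes and 2 without the day term. NDUFA4L2, known to be induced by the hypoxia factor HIF-1 and to lower complex I activity, had 162 at day 3, 702 with TGF-beta3 and 15.6 without it at day 21, and 860.5 with TGF-beta3 and loading, 695 with TGF-beta3 alone and 3.53 without TGF-beta3 at day 42. It rose by 5.51 on the log2 scale (limma adjusted p = 4.6e-11). NDUFA4L2 entered the test only through the arrays with TGF-beta3, because the tested arrays without it were not both above the floor. It could therefore be called only as risen. NDUFA4, its paralogue, counted here with complex I by its symbol and since assigned to complex IV, had 2448 with TGF-beta3 and 2511 without it at day 21 and 3899 with TGF-beta3 and 3330.2 without it at day 42. BNIP3, an outer membrane protein that promotes removal of mitochondria, rose by 2.41, EGLN3 by 2.33, the glucose transporter SLC2A1 by 1.94 and HIF1A by 1.61.

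Markers of other cell types moved with TGF-beta3 over the same arrays. Of 8 adipocyte markers tested, 8 fell: the summed signal of the 9 measured was 476 and 965 with TGF-beta3 at days 21 and 42 and 801 with loading, against 14711 and 17876 without TGF-beta3 and 5095 at day 3. ADIPOQ, CIDEC and AQP7 were under the floor on all 3 arrays with TGF-beta3 and at day 3, and CEBPA was under it on all arrays except the loaded one. Of 6 macrophage and blood cell markers tested, 3 fell. The summed signal of the 7 measured ran from 52.2 to 106 with TGF-beta3 and from 195 to 561 without it. The 3 that fell, AIF1, CD53 and CD68, were under the floor on all 3 arrays with TGF-beta3. They, like ADIPOQ, CIDEC and AQP7, entered the test only through the arrays without TGF-beta3. The test could therefore call these genes only as fallen. Of 7 chondrocyte markers, 7 rose, with summed signals from 35147 to 60862 with TGF-beta3 and from 8201 to 10571 without it. CHAD was under the floor on all 3 arrays without TGF-beta3, so the test could call it only as risen. In bulk RNA, fewer cells of a type and less RNA per cell cannot be told apart, and the part of adipocyte-like cells in the lower values of SDHA, NDUFS1, NDUFV3, the tricarboxylic acid cycle and beta-oxidation was not tested.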

How the data were processed

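The authors deposited 1 linear signal intensity per probe set and array. Per the submitters' processing notes the software was MAS5, with no version given in the sources used here. RNA was extracted with TRIZOL and amplified by the NuGEN ribo-SPIA method, per the labels' protocols. The table held 24128 probe sets. The 112 controls were left out, and 13292 of the other 24016 had 1 gene name in the platform annotation. All 79 members kept their symbol when matched by Entrez identifier to RefSeq.

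The authors' scaling was kept, values under 15 were set to 15, and log2 values were taken. A gene entered a comparison of 2 arrays if it was above 15 on at least 1. At least 2-fold means a log2 difference of at least 1, and against a value under the floor the fold is a lower bound. TGF-beta3 was tested with limma 3.58.1 in R 4.3.3 on 4 arrays (day as a term, variance trend, Benjamini-Hochberg adjustment over the 14872 probe sets that passed the floor on 2 or more of them). Residual degrees of freedom numbered 1 and those of the prior 66.1, so the spread pooled over probe sets sets the p-values. "Rose" and "fell" are used only for calls of that fit. The step was also run on simulated data, without the floor filter and with changes larger than those of the members that fell. That run does not test the p-values given here.

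Named were the members past the test, the 3 highest and 3 lowest per comparison above the floor on both arrays, a fixed list of subunits and isoform sets, and up to 4 genes of each related list past the test. Others past the test, NDUFA4 and the genes at least 2-fold changed were chosen once the values had been seen. The members and lists were chosen with earlier results of these data known. No sequence or genome coordinate was used here.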

Additional observations from a re-analysis of the deposited data

How the results depend on the processing

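No paired analysis was possible because the labels carry no replicate numbers; arrays were matched by day alone, through the day term. COX6B2 rose in every fit on 4 arrays, where it could be called only as risen. The number of members that rose was 1 in all fits except 6 without the day 21 array with TGF-beta3 (range 1 to 6 when 1 array was left out). The number that fell was 18 after quantile normalization, 11 with the loaded array, 7 with a floor of 100, 7 with the median of probe sets, 2 after median centring, 1 after spike centring, 0 with no day term, 0 with no variance trend, and 0 to 9 when 1 array was left out. The fits without an array had no day term. The mean log2 difference of COX4I1, 0.11 as scaled by the authors, was -0.70 after quantile normalization.

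Scaling moved the subunits' medians. For TGF-beta3 against none they were -0.33 (quantile) and -0.49 (spikes) at day 21, and -0.35 (quantile), -0.68 (median) and -1.41 (spikes) at day 42, where the loaded array gave -0.36. Median centring moved the median of all probe sets by -0.59 there. For loading they were -0.13 (quantile) and 0.079 (spikes). For day 42 against day 21 with TGF-beta3 they were 0.24 (quantile), 0.061 (median) and -0.81 (spikes), and for the loaded array 0.043, -0.16 and -0.64. Without TGF-beta3 they were 0.56 (quantile) and 0.86 (spikes) for day 21 against day 3, 0.79 (median) and 0.26 (spikes) for day 42 against day 21, and 1.06 (median) and 1.12 (spikes) for day 42 against day 3. UQCRH at day 42 turned to -0.13 (quantile) and -0.21 (spikes) and COX6A2 to -0.20 (spikes). For day 42 against day 21 with TGF-beta3, spike centring gave -0.048 for COX4I1, -0.068 for COX6A2, -0.048 for NDUFS8 and -0.15 for UQCRH. The medians for TGF-beta3 on each day and for time without TGF-beta3 kept their direction under all scalings tried. The cause of these shifts was not tested. For TGF-beta3 at day 42, the use of the loaded array, and the span from day 3 to day 42, were chosen after seeing the data.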
